A study of Homo sapiens with 6 samples.

Results

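Mitotic and G2/M genes were compared between HCC1806/HM3 cells with a stable MSLN knockdown (shMSLN) and the same cells with a control shRNA (shNC). The set was a list of 50 gene symbols covering mitotic kinases, cyclins, kinetochore and spindle proteins, condensin, the spindle checkpoint and cytokinesis. All 50 were among the 17860 genes of the deposited table, had a value in all 6 samples, and passed the filter on low counts that left 14552 genes to test. HCC1806 is a human breast squamous cell carcinoma line, and HM3 is a derivative recovered from liver metastases in mice by repeated passage. MSLN encodes mesothelin, a cell surface protein held by a GPI anchor. Each group had 3 samples, grown in RPMI medium with fetal bovine serum, and both groups carried a lentiviral shRNA construct. The knockdown samples came under 1 shMSLN label, and which of the study's human MSLN shRNA targets was sequenced was not stated, so effects of the shRNA sequence itself and of MSLN loss cannot be told apart. The labels did not say whether samples came from separate cultures, so p-values measure the spread between these samples, which may be technical.

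Cells entering mitosis switch on a shared set of genes late in the cycle. Cyclin B and CDK1 drive entry, Polo and Aurora kinases build and correct the spindle, the kinetochore joins chromosomes to microtubules, and the anaphase-promoting complex (APC/C) releases the chromatids before the cell divides. Their promoters are known for the cell cycle genes homology region (CHR), bound by the MuvB complex as part of DREAM in resting cells and with B-MYB and FOXM1 in dividing ones, and for CCAAT boxes bound by NF-Y. These transcripts are low in resting cells and peak in G2 and mitosis, so in bulk RNA fewer or more cells in those phases cannot be told apart from less or more RNA per cell.

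The shared promoter elements are shown first, for 3 members that rose with MSLN knockdown (PRC1, KIF23 and CCNB2) and 2 that fell (MKI67 and KIF18B). Each line gives 200 bases of RefSeq sequence (GRCh38.p14), 5′ to 3′ on the gene's strand, from 170 bases before the transcription start to 30 bases after it. Capitals mark CHR elements (TTTGAA or TTCGAA) and CCAAT boxes, read on either strand, so that ATTGG is a CCAAT box on the other strand. The windows are chr15:90994506-90994705 (minus strand) for PRC1, chr15:69414179-69414378 (plus) for KIF23, chr15:59104976-59105175 (plus) for CCNB2, chr10:128126394-128126593 (minus) for MKI67 and chr17:44947744-44947943 (minus) for KIF18B.
PRC1: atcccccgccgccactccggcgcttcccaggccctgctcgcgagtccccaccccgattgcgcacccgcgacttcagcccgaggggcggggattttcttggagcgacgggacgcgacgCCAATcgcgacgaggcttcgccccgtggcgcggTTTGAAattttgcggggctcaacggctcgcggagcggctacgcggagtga
KIF23: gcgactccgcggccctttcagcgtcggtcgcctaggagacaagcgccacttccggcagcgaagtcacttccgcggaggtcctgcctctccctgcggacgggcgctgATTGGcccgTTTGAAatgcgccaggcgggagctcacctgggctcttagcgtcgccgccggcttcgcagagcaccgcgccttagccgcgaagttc
CCNB2: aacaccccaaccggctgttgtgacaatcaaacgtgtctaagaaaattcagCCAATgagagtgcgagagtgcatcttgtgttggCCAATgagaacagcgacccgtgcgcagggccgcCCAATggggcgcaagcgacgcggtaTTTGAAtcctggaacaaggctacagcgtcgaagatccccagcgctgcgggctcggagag
MKI67: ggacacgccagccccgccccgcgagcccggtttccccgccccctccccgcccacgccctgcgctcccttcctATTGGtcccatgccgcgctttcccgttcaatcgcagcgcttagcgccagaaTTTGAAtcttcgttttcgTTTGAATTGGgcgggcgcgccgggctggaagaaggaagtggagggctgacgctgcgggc
KIF18B: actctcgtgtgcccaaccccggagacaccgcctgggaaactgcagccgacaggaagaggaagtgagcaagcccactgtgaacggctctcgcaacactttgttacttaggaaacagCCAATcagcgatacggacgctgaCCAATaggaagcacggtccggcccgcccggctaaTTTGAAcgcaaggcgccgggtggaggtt
All 5 windows, chosen for showing the elements, held a CHR and at least 1 CCAAT box. Of the other members that fell, ANLN had a CHR and no CCAAT box and CDC25B had neither. In MKI67, a CHR and a CCAAT box overlapped.

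Over windows from 250 bases before to 50 after the start, 43 of the 50 members had a promoter in the RefSeq table. FOXM1, AURKA, BIRC5, BUB3, TTK, TPX2 and UBE2C had none there. A CHR was found in 32 of the 43 (74.4%), against 16.6% of all 27305 promoters of that length and 11.5% of the 11786 promoters of tested genes. CCAAT boxes were found in 34 members (79.1%), against 35.7% of all promoters, and 22 members (51.2%) had 2 or more, against 11.3%. Both elements stood together in 27 members (62.8%), against 6.58% of all promoters. Of the 42 CHR matches in members, 29 lay from 60 bases before to 20 bases after the start. The CHR share was close to the same in members that rose (14 of 19, 73.7%), members that fell (3 of 4, 75.0%) and members that did not pass the test (15 of 20, 75.0%). CCAAT boxes stood in 89.5% of those that rose (17 of 19), 2 of the 4 that fell and 75.0% of those that did not pass (15 of 20). Mitotic genes outside the members had a CHR in 36 of 55 promoters (65.5%), a CCAAT box in 32 (58.2%) and both in 24 (43.6%). Genes of DNA replication and the G1/S transition had a CHR in 3 of 44 promoters (6.82%) and a CCAAT box in 23 (52.3%). In these lists, 30.9% and 31.8% of promoters had 2 or more CCAAT boxes. A match is a run of letters in a window and does not show binding. Only TTTGAA and TTCGAA were searched as CHR, so a promoter without a match may hold another spelling of it.

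MSLN itself was at 231, 226 and 227 CPM in the 3 shNC samples and at 37.1, 36.2 and 35.4 CPM in the 3 shMSLN samples, where CPM is the count scaled to a common library size. Its log2 fold change was -2.65 (SE 0.042, adjusted p = 3.97e-15, edgeR's quasi-likelihood test). An exact two-sided permutation test on this gene alone gave p = 0.1, the smallest value that 3 against 3 samples allow. Estimated counts summed to between 17507837 and 18512135 per sample. The table was made unevenly: 1103 genes had no value in shMSLN replicate 1 and 695 in each of shMSLN replicates 2 and 3. No gene lacked a value in the shNC samples, so missing values followed the groups. An effect of how the table was made therefore cannot be told apart from that of the knockdown. Among genes over 100 reads, 47.7% of values were whole numbers in shMSLN replicates 2 and 3 against 3.36% to 7.02% in the other 4 samples. Among the 50 members, 30 and 32 counts were whole numbers in shMSLN replicates 2 and 3, and at most 2 in any other sample. Epithelial markers were high (KRT5 at 2270 ± 170 CPM in shNC and CDH1 at 294 ± 8.64, SD, n = 3), and the hepatocyte marker ALB was at 0.0561 CPM or less in every sample. Of 8 epithelial and squamous markers 3 rose and 3 fell, KRT5 to 1750 CPM among the latter, and the basal keratin KRT14 was low in every sample (3.39 to 4.26 CPM). The summed level of 6 fibroblast and stromal markers was 94.1 to 97.8 CPM in shNC and 159 to 163 CPM in shMSLN, where 2 of the 4 tested members rose, LUM from 60.3 to 125 CPM and DCN from 1.09 to 1.77 CPM, while COL1A1 was at 29.7 to 32.4 CPM and PDGFRB at 2.54 to 3.77 CPM without passing the test, and COL1A2 and COL3A1, too low to test, were at 0.43 CPM or less. Summed immune markers were at 28.6 to 31.8 CPM and endothelial markers at 7.32 to 9.94 CPM over all samples. The part of these markers in the results on mitotic genes was not tested.

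Mitotic and G2/M transcripts were slightly higher in the knockdown cells, with a few members against that direction. Of the 50 members, 22 rose, 4 fell and 24 did not pass an adjusted p of 0.05 in edgeR's quasi-likelihood test. Over all tested genes, 16.6% rose and 18% fell, 34.6% in either direction. Their median log2 fold change was 0.10, against 0.002 for all tested genes, and 40 of the 50 had a positive estimate. Differences were small. Members ranged from -0.26 (KIF18B) to 0.5 (PRC1) on the log2 scale, and the 26 that passed had a median size of 0.2, against 0.29 for the 5032 genes called over the whole table. No member passed 1 on the log2 scale, whereas 285 called genes did. Of the 26 calls, those of 13 members that rose and of the 4 that fell held under every alternative other than a fit with 1 knockdown sample. CCNA2, CCNB1, AURKA, AURKB, BUB1B, KIF4A, KIF14, ASPM and CDC20 lost theirs in 1 or more of the fits that left out 1 sample. AURKA, AURKB, KIF4A and CDC20 also lost theirs with DESeq2, and AURKA, KIF4A and CDC20 without the filter on low counts. Whether counting used strand was not stated, and 13 of the 50 members overlap another listed gene. Among the called members these are KIF20A (BRD8 and CDC23), CCNA2 (EXOSC9), KIF4A (PDZD11) and ANLN (KIAA0895), with the other gene on the opposite strand, and BUB1B (BUB1B-PAK6) on the same strand. CENPA shares its strand with SLC35F6. Reads of such pairs may not have been told apart.

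Read sample by sample, all 3 shMSLN values lay above all 3 shNC values for 30 members, below them for 5, and the groups overlapped for 15. Over all tested genes, all shMSLN values were above in 22.7% and below in 23.5%, without overlap in 46.2%. The members that fell were CDC25B, KIF18B, ANLN and MKI67, and the fifth without overlap on the low side was ECT2, which did not pass the test.

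**Figure D1:**
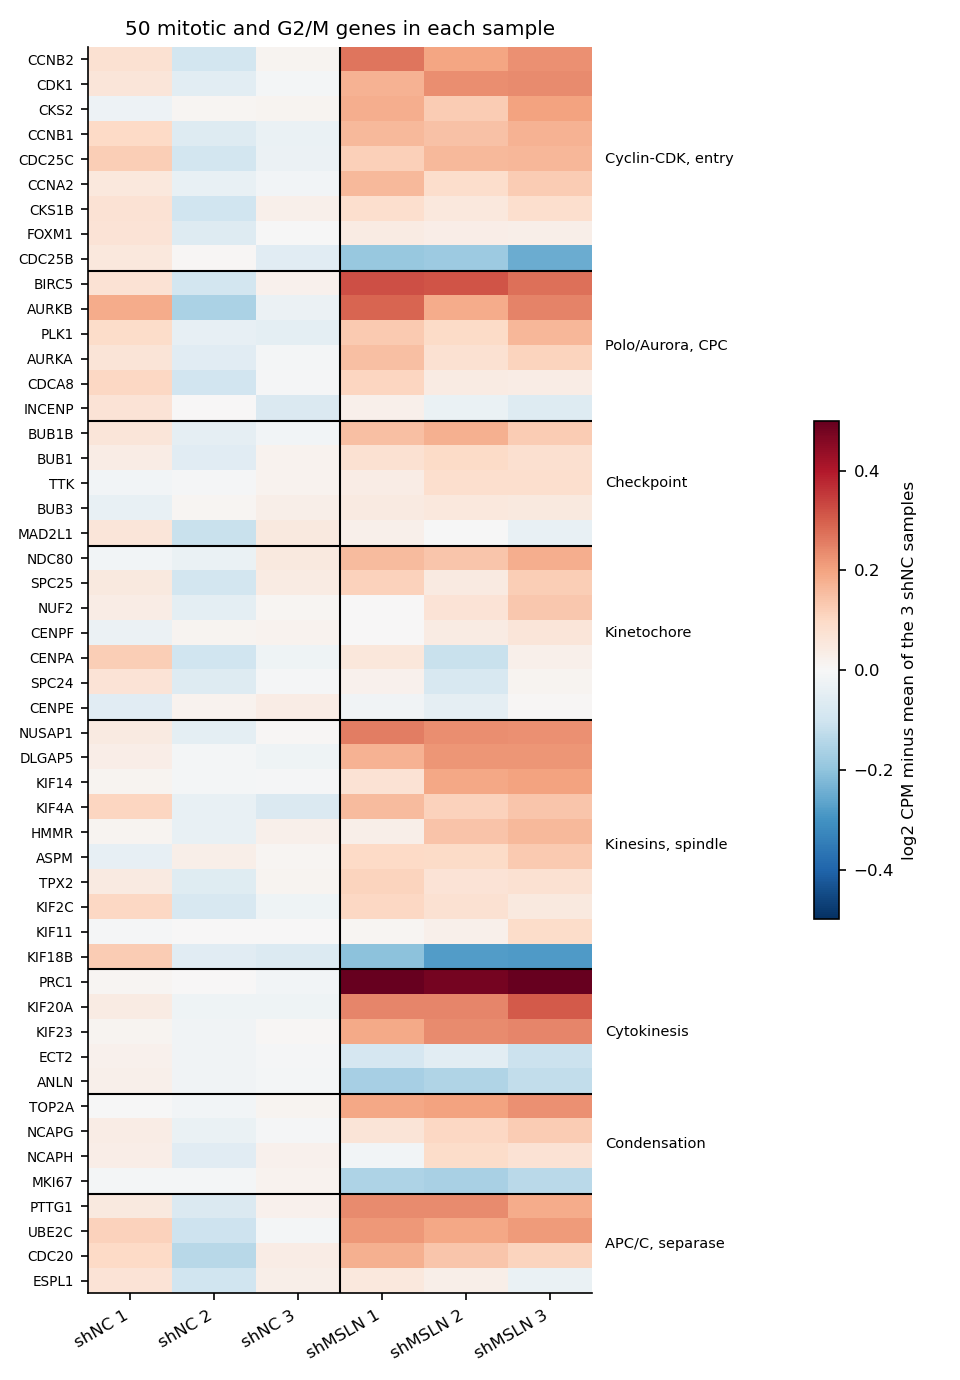
Each row is 1 of the 50 genes, grouped by role, each column 1 sample, and the colour gives the log2 CPM minus the mean of the 3 shNC samples (red higher, blue lower). PRC1 is the darkest row in all 3 shMSLN columns, and MKI67, CDC25B, KIF18B and ANLN are blue in each of them.

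Of genes that drive mitotic entry, 5 of 9 rose, 1 fell and 3 did not pass. Beside this and each role below stands the share over all tested genes, of which 16.6% rose and 18% fell. CDK1, the kinase that starts mitosis, was at 181, 167 and 173 CPM in shNC and at 196, 204 and 204 CPM in shMSLN. Every knockdown sample was above every control sample. Its log2 fold change was 0.21 (SE 0.04, adjusted p = 9e-04). CCNB2, a B-type cyclin that activates CDK1, was at 156, 139 and 150 CPM against 179, 170 and 173 CPM, and rose by 0.23 (adjusted p = 0.00111). CCNB1, the main mitotic cyclin, was at 235, 210 and 214 CPM against 245, 243 and 248 CPM. The shNC samples spread over a wider range than the shMSLN ones (SD 13.7 against 2.49), with shNC replicate 1 nearest to the knockdown level. CCNB1 rose by 0.16 (adjusted p = 0.0112). CKS2, a small subunit that binds CDK1, was at 61, 62.6 and 62.7 CPM against 70.5, 67.7 and 71.4 CPM, with no overlap, and rose by 0.17 (adjusted p = 0.00858). CCNA2, the cyclin of S phase and G2, rose by 0.13 (adjusted p = 0.0232).

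Of the members that are phosphatases removing the inhibitory marks from CDK1, 1 fell and 1 did not pass. CDC25A, a relative outside the members, was at 0.25 and did not pass (adjusted p = 0.0971). CDC25B, which acts at the start of mitosis, was at 155, 151 and 144 CPM in shNC and 131, 132 and 126 CPM in shMSLN. All knockdown samples were below all controls. It fell by 0.21 on the log2 scale (SE 0.041, adjusted p = 0.00134), while its relative CDC25C had an estimate of 0.14 that did not pass (adjusted p = 0.083). FOXM1, the transcription factor of the G2/M programme, was at 168, 153 and 160 CPM against 164, 164 and 163 CPM. The shNC samples lay on both sides of the shMSLN samples, and the difference was 0.03 (SE 0.041, adjusted p = 0.554). CKS1B, the other CDK1-binding subunit, was at 0.07 (adjusted p = 0.251).

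Polo and Aurora kinases and the chromosomal passenger complex, which corrects faulty attachments and guides cytokinesis, had 3 of 6 members that rose and none that fell. BIRC5 (survivin), the passenger subunit that also blocks cell death, was at 168, 150 and 162 CPM in shNC and 200, 198 and 193 CPM in shMSLN. The groups were well apart, and BIRC5 rose by 0.3 (SE 0.044, adjusted p = 9.65e-05). AURKB, the kinase of that complex, was at 162, 127 and 139 CPM against 174, 162 and 169 CPM. Its highest control and lowest knockdown sample were nearly level, and its difference was 0.24 (SE 0.065, adjusted p = 0.0116). The other passenger subunits did not pass: CDCA8 (borealin) was at 0.06 (adjusted p = 0.39) and the scaffold INCENP at -0.03 (adjusted p = 0.714). AURKA, the spindle pole kinase, was just inside the threshold at 0.11 (adjusted p = 0.0497). PLK1, the Polo kinase of entry and spindle assembly, was at 58.7, 53.6 and 53.3 CPM against 60.4, 58.9 and 61.8 CPM. The groups just cleared each other (58.7 against 58.9), and the estimate of 0.13 did not pass (SE 0.051, adjusted p = 0.0614).

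The spindle assembly checkpoint and the kinetochore had the lowest medians among the 8 roles, with 1 of 5 and 1 of 7 members that rose, none that fell, and median log2 fold changes of 0.07 and 0.03. The checkpoint median (0.068) was nearly level with that of chromosome condensation (0.074). Called were 20% and 14.3%, against 34.6% of all tested genes in either direction and 16.6% that rose. BUB1B (BubR1), a checkpoint protein that restrains the APC/C, was at 186, 173 and 176 CPM against 198, 201 and 195 CPM, with no overlap, and rose by 0.15 (adjusted p = 0.00785). It shares sequence and strand with the read-through gene BUB1B-PAK6, listed at 9.25 to 12.3 CPM, so reads could have been split between them. Its partners BUB1, BUB3 and TTK had estimates of 0.08, 0.05 and 0.07, and MAD2L1 was at -0.01 (adjusted p = 0.942). NDC80, the microtubule-binding arm of the kinetochore, was at 86.4, 85.3 and 90.4 CPM against 97.4, 96.1 and 99 CPM. All shMSLN samples were above, and NDC80 rose by 0.16 (adjusted p = 0.009). The other subunits of its 4-protein complex did not pass, with NUF2 at 0.07, SPC25 at 0.09 and SPC24 at -0.02. CENPA, the histone that marks centromeres, CENPE, a kinetochore motor, and CENPF, a large G2 protein of the outer kinetochore, were at -0.01, -0.02 and 0.03.

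**Figure D2:**
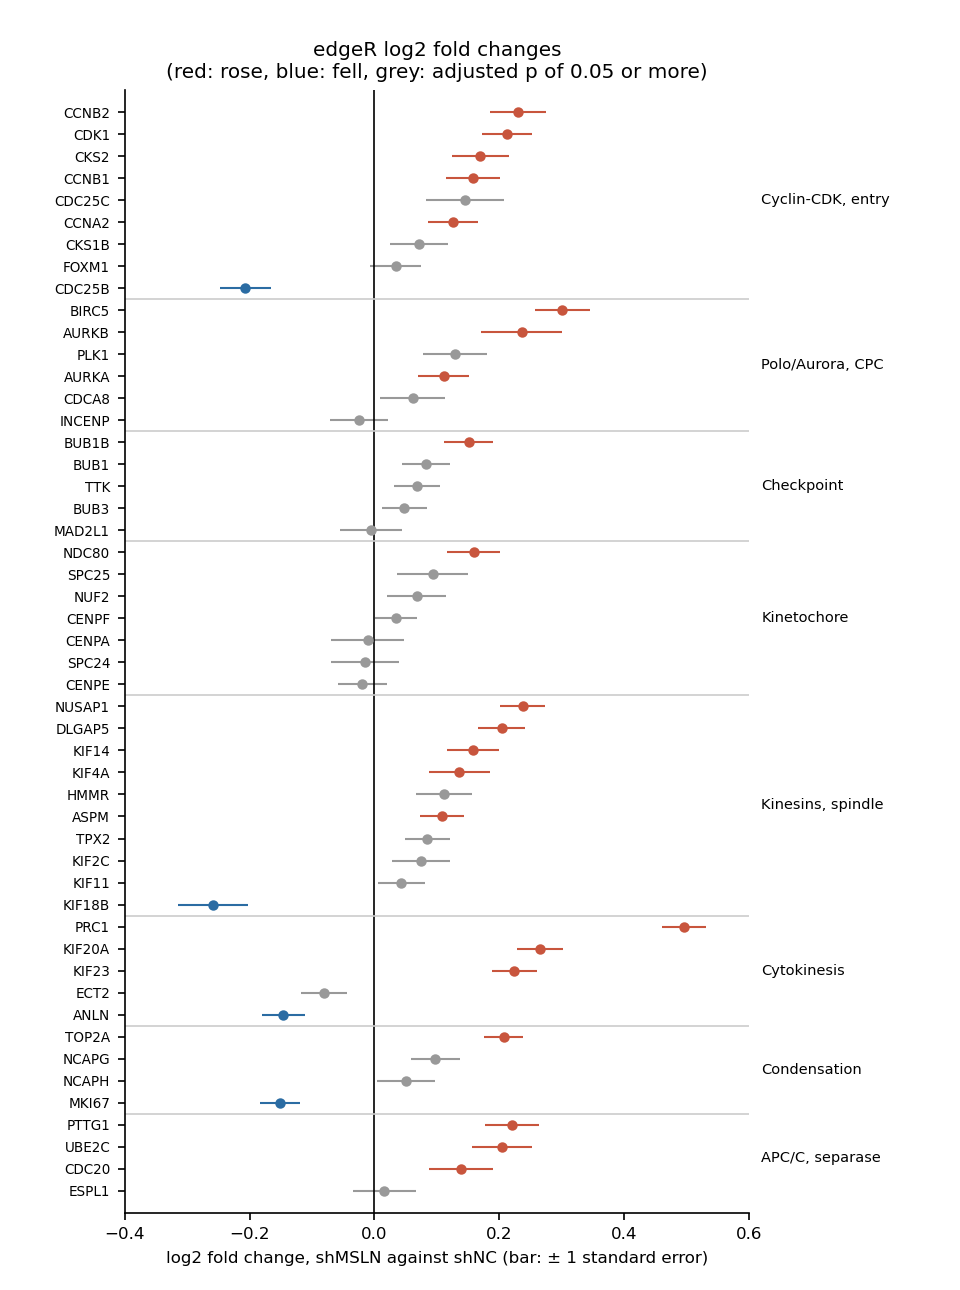
Points give the log2 fold change of each of the 50 members in shMSLN against shNC, bars 1 standard error either side, grouped by role. Red points rose and blue points fell at an adjusted p under 0.05, and grey points did not pass. Cytokinesis holds both PRC1, the highest at 0.5, and ANLN at -0.15, whereas 6 of the 7 kinetochore genes are grey.

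Kinesins and spindle assembly factors had 5 of 10 members that rose and 1 that fell. NUSAP1, which bundles microtubules around chromosomes, was at 383, 359 and 373 CPM in shNC and 444, 436 and 435 CPM in shMSLN. The knockdown samples were all higher, and NUSAP1 rose by 0.24 (SE 0.036, adjusted p = 0.000126). DLGAP5 (HURP), which stabilises the fibres that hold chromosomes, was at 151, 146 and 145 CPM against 166, 172 and 172 CPM and rose by 0.2 (adjusted p = 0.000732). KIF14, a motor of the central spindle, was at 143, 141 and 141 CPM against 149, 162 and 163 CPM. Its shMSLN replicate 1 was nearer to the controls than to the other two knockdown samples, and it rose by 0.16 (adjusted p = 0.00913). ASPM, a spindle pole protein, and KIF4A, a chromosome-bound motor, rose by 0.11 (adjusted p = 0.0272) and 0.14 (adjusted p = 0.0441). KIF18B, which trims the tips of astral microtubules, went the other way, at 79.7, 70.1 and 69.5 CPM in shNC and 63.2, 60.1 and 59.9 CPM in shMSLN. No sample overlapped, and it fell by 0.26 on the log2 scale (SE 0.056, adjusted p = 0.00244). TPX2, the activator of AURKA, and HMMR, its partner at the spindle, were above the controls in all 3 knockdown samples and did not pass (0.08, adjusted p = 0.082, and 0.11, adjusted p = 0.0699). The spindle motor KIF11 and the microtubule-depolymerising kinesin KIF2C were at 0.04 and 0.07.

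Cytokinesis held the member with the largest difference and differences in both directions: 3 of 5 rose, 1 fell, and the median was 0.22. PRC1, which crosslinks antiparallel microtubules at the spindle midzone, was at 157, 156 and 154 CPM in shNC and 220, 217 and 222 CPM in shMSLN. The groups lay far apart for their spread (156 ± 1.12 and 219 ± 2.56 CPM, SD, n = 3), a level 41% higher. Its log2 fold change was 0.5 (SE 0.035, adjusted p = 8.49e-08). KIF20A (MKLP2), the motor that carries the passenger complex to the midzone, was at 275, 263 and 264 CPM against 317, 317 and 331 CPM and rose by 0.27 (SE 0.037, adjusted p = 5.96e-05). KIF23 (MKLP1), the motor subunit of centralspindlin, was at 202, 198 and 201 CPM against 229, 236 and 238 CPM and rose by 0.22 (SE 0.036, adjusted p = 0.000226). PRC1, KIF20A and KIF23 were higher in every knockdown sample, as were 22.7% of all tested genes. Of the genes in this role for the contractile ring and its activation, 1 fell and 1 did not pass. A division of this role into midzone and ring genes was not planned beforehand. It does not cover all such genes, as KIF14, a motor of the central spindle, was placed under another role. ANLN (anillin), the ring scaffold, was at 338, 329 and 331 CPM against 296, 300 and 305 CPM and fell by 0.15 on the log2 scale (SE 0.034, adjusted p = 0.0041). ECT2, the exchange factor that activates RhoA at the division plane, was at 185, 180 and 182 CPM against 172, 176 and 169 CPM. Its samples did not overlap either, yet the estimate of -0.08 did not pass (SE 0.037, adjusted p = 0.101).

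**Figure D3:**
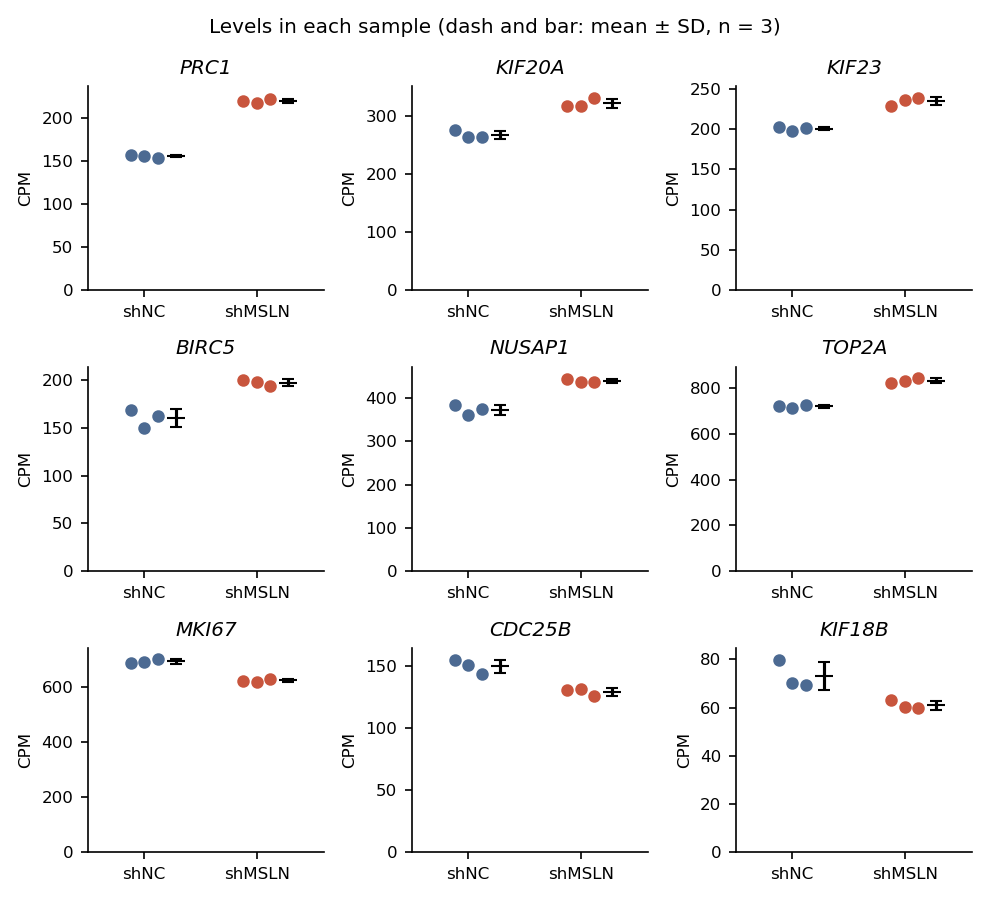
Points give the CPM of each sample for 9 members, with the mean and 1 SD of 3 samples beside them and each axis starting at 0. PRC1, KIF20A, KIF23, BIRC5, NUSAP1 and TOP2A are higher in all 3 shMSLN samples, and MKI67, CDC25B and KIF18B are lower in all 3.

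Among genes of the mitotic chromosome, TOP2A and MKI67, both widely used as proliferation markers, moved apart. TOP2A, the topoisomerase that untangles chromatids, was at 719, 713 and 725 CPM in shNC and 822, 828 and 841 CPM in shMSLN. Knockdown samples were all higher, and TOP2A rose by 0.21 (SE 0.031, adjusted p = 0.000137), to a level 15.5% higher. MKI67, which encodes Ki-67 and coats mitotic chromosomes, was at 686, 687 and 700 CPM against 621, 617 and 629 CPM. Every knockdown sample was lower, and MKI67 fell by 0.15 on the log2 scale (SE 0.032, adjusted p = 0.00192). The condensin subunits NCAPG and NCAPH were at 0.10 (adjusted p = 0.063) and 0.05 (adjusted p = 0.433).

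Genes of the APC/C and of chromatid separation had 3 of 4 members that rose and none that fell. PTTG1 (securin), the inhibitor of separase, was at 109, 101 and 107 CPM in shNC and 125, 125 and 120 CPM in shMSLN. The groups were apart, and PTTG1 rose by 0.22 (SE 0.043, adjusted p = 0.00119). UBE2C, the ubiquitin-conjugating enzyme of the APC/C, was at 165, 142 and 152 CPM against 178, 175 and 177 CPM and rose by 0.2 (SE 0.048, adjusted p = 0.00441). CDC20, which brings substrates to the APC/C in mitosis, was at 193, 164 and 184 CPM against 203, 198 and 194 CPM. Its nearest samples were at 193 and 194 CPM, and its rise of 0.14 was close to the threshold (adjusted p = 0.0487). ESPL1 (separase), which PTTG1 restrains, was at 0.02 with overlapping groups (adjusted p = 0.838).

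The members' levels also varied between samples of 1 group. Relative to the mean of the shNC samples, the median member was at 0.049 in shNC replicate 1, -0.046 in replicate 2 and 0 in replicate 3 on the log2 scale, and at 0.106, 0.094 and 0.124 in shMSLN replicates 1, 2 and 3. All 3 knockdown samples were above all controls, and the distance from the highest control was about as large as that control's distance from the group mean. In shNC replicate 1, 40 of 50 members were above the shNC mean, and in replicate 2, 41 were below it, whereas 48.3% and 51.5% of all tested genes were above it in those samples. The summed level of the members was 9301, 8861 and 9101 CPM in shNC and 9730, 9693 and 9792 CPM in shMSLN. Within a group the members' ranges were smaller than those of all tested genes. The median range over 3 samples was 0.106 on the log2 scale in shNC and 0.059 in shMSLN, against 0.16 and 0.12 for all tested genes. Members were at 30.5 CPM or more in every sample, whereas tested genes included far lower ones, such as DCN at 0.831 to 1.99 CPM. The part of expression level in this difference was not tested. For all tested genes, but not for the members, a small constant was added before the log. shMSLN replicate 1, which had the most genes without a value but a share of whole-number counts (4.67%) within the range of the controls, lay between the other two knockdown samples in its median. With that sample as the only one of its group, its spread taken to be that of the controls, 5 members rose (PRC1, BIRC5, KIF20A, NUSAP1 and CCNB2), none fell, the median was 0.106, and all 26 members called above had the same sign.

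**Figure D4:**
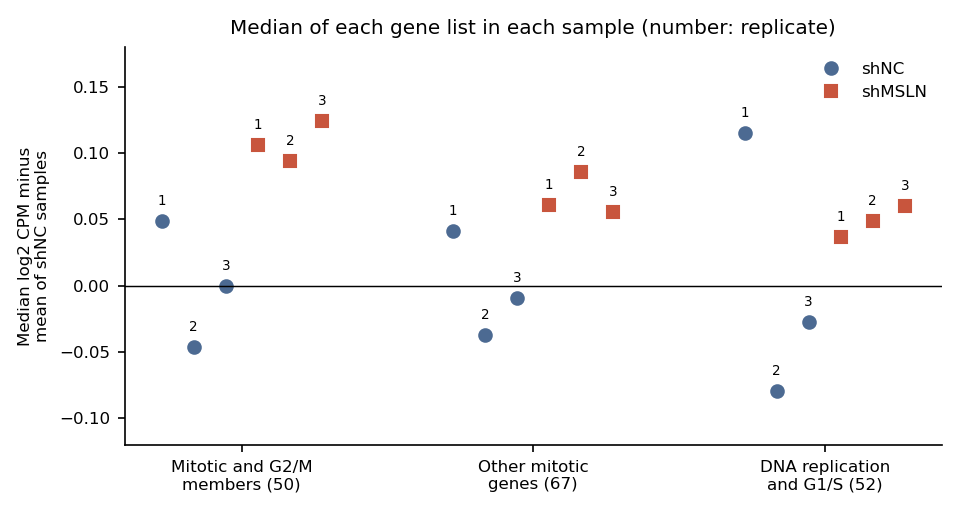
Points give, for each sample, the median over the genes of a list of the log2 CPM minus the mean of the shNC samples (circles shNC, squares shMSLN, numbers the replicates), for 3 lists. In the 50 members the shMSLN samples (0.094 to 0.124) are above all shNC samples, and in DNA replication and G1/S genes shNC replicate 1 (0.115) is above all shMSLN samples.

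Levels per transcript length differed widely among the members. In TPM, which scales counts by transcript length and library size, the highest in shNC were UBE2C at 448 ± 24.9, TPX2 at 389 ± 7.04, NUSAP1 at 362 ± 5.32, CKS1B at 342 ± 13.8 and PTTG1 at 333 ± 8.35 (SD, n = 3). The spreads of CKS1B and PTTG1 overlapped, so their order is not set by these samples. The lowest were ESPL1 at 22.7 ± 0.881, CDC25C at 36.8 ± 2.11 and KIF18B at 38.9 ± 2.81, and MAD2L1 (39.5 ± 1.77) and INCENP (39.8 ± 2.55) came next. Apart from ESPL1, these 4 lay within their spread of each other, and their order is not set. PTTG1 and ESPL1, inhibitor and protease of the same step, thus stood near opposite ends of the TPM scale.

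Other genes of the pathway were followed through lists kept apart from the members. Of 67 further mitotic genes tested, 16 rose and 4 fell, with a median of 0.06. PIMREG, a mitotic regulator, rose by 0.35 (adjusted p = 0.000485), ZWINT, a kinetochore protein, by 0.24 (adjusted p = 0.00536), TROAP by 0.23 (adjusted p = 0.00125) and OIP5, a factor that loads CENPA, by 0.21 (adjusted p = 0.0262), while CDCA5 (sororin), which protects cohesion, fell by 0.24 in log2 units (adjusted p = 0.00643). Among 17 APC/C subunits and regulators, 4 rose and 2 fell, with differences of 0.2 for ANAPC13, 0.18 for ANAPC15, -0.15 for ANAPC7, 0.12 for ANAPC16 and 0.11 for ANAPC5 on the log2 scale. In either direction, 29.9% of the further mitotic genes and 35.3% of the APC/C list passed, against 34.6% of all tested genes. Cohesin holds sister chromatids together until separase cuts it. Of 12 cohesin genes and regulators, 6 fell and none rose, with a median of -0.11. PDS5B, a cohesin regulator, was at 133, 140 and 141 CPM against 101, 94.4 and 94.7 CPM and fell by 0.51 on the log2 scale (SE 0.043, adjusted p = 3.89e-07). ESCO1 and ESCO2, which acetylate cohesin, fell by 0.37 and 0.36, the subunit STAG1 by 0.21 and PDS5A, the relative of PDS5B, by 0.18. In this list 50% passed, all of them lower, against 34.6% of all tested genes in either direction and 18% that fell.

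Of 17 genes of DREAM, MuvB and the MYB family, which regulate G2/M promoters, none rose and 4 fell, with a median of -0.04. That is 23.5% called, against 34.6% of all tested genes, of which 18% fell. The 4 that fell were MYBL1 at -0.4, TFDP1, the partner of E2F factors, at -0.26, LIN52 at -0.24 and LIN54, the MuvB subunit that binds the CHR, at -0.15. MYBL1 was low, at 4.03 to 6.73 CPM over all samples, and its groups overlapped. MYBL2, which encodes B-MYB, was at 87.9 CPM in shNC and 87.8 CPM in shMSLN and did not pass (adjusted p = 0.988). Of the 4 that fell, TFDP1 had an adjusted p of 0.000216, and the other 3 lay just inside the threshold (adjusted p of 0.0475 to 0.0491). TFDP1 was at 322, 288 and 308 CPM against 255, 259 and 253 CPM.

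The brakes on mitotic entry moved in both directions. Of 13 genes of the G2 checkpoint and p53 response, 3 rose and 5 fell (61.5% called), with a median of -0.15. Over all tested genes 34.6% were called, with 16.6% that rose and 18% that fell. WEE1, the kinase that places the inhibitory mark on CDK1, was at 93, 97.3 and 98.7 CPM in shNC and 145, 149 and 146 CPM in shMSLN. The groups were far apart, and WEE1 rose by 0.61 (SE 0.04, adjusted p = 4e-08), more than any of the 50 members. WEE1 thus rose while CDC25B, which removes that mark, fell and CDK1 and the B cyclins rose. PKMYT1, another kinase that inhibits CDK1, was at -0.24 and the phosphatase CDC25A at 0.25. Neither passed (adjusted p of 0.0757 and 0.0971). CDKN1A (p21), the CDK inhibitor induced by p53, was at 27.1, 29.4 and 28.4 CPM against 20.3, 19.7 and 16.7 CPM and fell by 0.58 in log2 units (adjusted p = 3.57e-05). BTG2, another p53 target, fell by 0.51, ATR, the kinase that signals stalled replication, by 0.21 and MDM2, the ligase that restrains p53, by 0.19.

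Earlier in the cycle, 10 of 52 genes of DNA replication and G1/S rose and 3 fell, with a median of 0.06. In either direction 25% passed, fewer than the 34.6% over all tested genes. MCM6, a subunit of the replicative helicase, was at 58.4, 52.7 and 52.9 CPM against 94.8, 98.7 and 95.5 CPM. It rose by 0.82 (SE 0.05, adjusted p = 1.87e-08) with no overlap between groups. RPA3, a subunit of the single-strand DNA binding protein, rose by 0.37, TK1, thymidine kinase, by 0.23 and CCNE2, the cyclin of S phase entry, by 0.3, while E2F2 fell by 0.4 on the log2 scale. In this list, unlike the members, the control samples spread past the knockdown samples. The median gene was at 0.115 in shNC replicate 1 and at -0.079 in replicate 2, against 0.037 to 0.06 in shMSLN.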

How the data were processed

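RNA of 3 shNC and 3 shMSLN samples of HCC1806/HM3 cells was sequenced by BGI after oligo(dT) enrichment. The authors deposited 1 table, keyed by gene symbol and NCBI Gene identifier, of estimated counts, TPM and FPKM in each sample. The submitters' processing notes name GRCh38.p13. The aligner, the counter and the use of strand were not given in the sources used here. Deposited estimated counts were not scaled to library size, and deposited TPM values, scaled by the authors for length and depth, served for levels between genes and 1 alternative. FPKM was not used. In the shMSLN columns some cells held no number, so 1287 genes without a value in all 6 samples were left out of the 17860 listed.

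Counts were rounded and tested with edgeR 4.0.16 (R 4.3.3; filterByExpr, TMM scaling, quasi-likelihood test, groups only, Benjamini-Hochberg over 14552 genes). CPM used TMM-scaled library sizes, the standard error was the log2 fold change divided by the root of F, and rose or fell means an adjusted p under 0.05. Alternatives were RLE and upper-quartile scaling, other filters on low counts, robust estimation, DESeq2 1.42.0, limma-voom and limma on log2(TPM + 1) (limma 3.58.1), a replicate block, each replicate left out and, chosen after seeing the data, shMSLN replicate 1 alone in its group. Members and lists were chosen with earlier results of these data known, so no set test was run. Full values are given for MKI67, CCNB1, CDK1, PLK1, FOXM1 and the 20 called members with the smallest adjusted p, other members by estimate, and from each other list the called genes with the 5 largest log2 fold changes. AURKB, ECT2 and CDC20 were shown per sample after their values were seen. CDC25A, PKMYT1 and MYBL2, which were not called, were likewise added after their values were seen. Promoters came from RefSeq (GRCh38.p14) and gene overlaps from GENCODE v29. Each sample's total count, 17507837 to 18512135, sets the counting error.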

Additional observations from a re-analysis of the deposited data

How the results depend on the processing

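Of the 26 members called, 13 that rose and all 4 that fell kept their call under each of the 15 alternatives other than shMSLN replicate 1 alone: CCNB2, CDK1, CKS2, BIRC5, NDC80, NUSAP1, DLGAP5, KIF20A, KIF23, PRC1, TOP2A, UBE2C and PTTG1 rose, and CDC25B, KIF18B, ANLN and MKI67 fell. Another 9 (CCNA2, CCNB1, AURKA, AURKB, BUB1B, KIF4A, KIF14, ASPM and CDC20) lost it under 1 or more, 16 members were called under none of them, and 8 that were not called in the report were called under at least 1. The number of members called was 22 with DESeq2, 23 without the filter on low counts, 32 with upper-quartile scaling and 33 with limma on log2(TPM + 1). Leaving out 1 sample at a time gave 19 members (without shNC replicate 3) to 34 (without shNC replicate 1), and 3695 to 5399 genes in all, with a median member at 0.078 to 0.116. On the TPM scale 2648 genes rose and 1690 fell over the whole table, against 2411 and 2621 on counts, with the median of all tested genes at 0.032. The cause was not tested.

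With shMSLN replicate 1 alone in its group, chosen after seeing the data, 1797 genes differed (876 higher, 921 lower) and 5 members (5 higher, 0 lower), in a group with 1 sample instead of 3. Signs turned for members that were not called and whose estimates were near 0. With upper-quartile scaling INCENP was at 0.004, MAD2L1 at 0.024, CENPA at 0.018, CENPE at 0.01 and SPC24 at 0.014. With limma on log2(TPM + 1) INCENP was at 0.033, MAD2L1 at 0.029, CENPA at 0.021 and CENPE at 0.015. With shMSLN replicate 1 alone INCENP was at 0.027, MAD2L1 at 0.026, CENPA at 0.057, SPC24 at 0.023 and NCAPH at -0.011. Leaving out 1 sample gave INCENP from -0.061 to 0.009, MAD2L1 from -0.058 to 0.024 (0.017 without shNC replicate 3 and 0.013 without shMSLN replicate 3), CENPA from -0.059 to 0.052, SPC24 from -0.045 to 0.019 and ESPL1 from -0.031 to 0.051.

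Same-numbered samples of the 2 groups had correlations of 0.16, 0.08 and 0.07 between their deviations from the group means, and each sample correlated best with its own number, a hint from the data and not from the design. Numbers were not taken to pair samples. With the replicate block, 30 members (26 higher, 4 lower) and 5789 genes in all were called, PLK1 (adjusted p = 0.0346), TPX2, HMMR and NCAPG among them, and the block took no call away from a member.

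Limits bear most on members near the threshold, AURKA, KIF4A and CDC20 first. The groups hold 3 samples each, the knockdown is 1 shRNA label, and shMSLN replicates 2 and 3 were deposited with more whole-number counts than the other samples. Genes without a value occurred in the shMSLN samples only.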
